A study of Homo sapiens with 4 samples.

Results

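The genes described here encode proteins of the mitotic spindle and of cell division. They are a fixed list of 50 genes, drawn from 20033 protein-coding genes of GENCODE release 44, chosen by function, with no peak or other measured value in the rule. The choice was made with earlier results of these data known. A GATA2 peak was given to one of these genes when the closest transcription start site (TSS) of any protein-coding transcript on hg38 was one of its own. GATA2 ChIP-seq, which sequences DNA pulled down with an antibody against this transcription factor, had been done in K562, an established chronic myeloid leukaemia line. The compared groups were asynchronous K562 cells and nocodazole-arrested K562 cells sorted as MPM-2+ mitotic cells. Both groups were fixed with disuccinimidyl glutarate (DSG) and then formaldehyde, and both were precipitated with the same GATA2 antibody. The mitotic pellets of several sorts were joined into 1 library, and by the labels a small share of asynchronous cells could remain among them. With 1 library per condition, no difference between the conditions could be tested, and all intervals are 95% exact binomial or Poisson intervals that cover counting error over genes or peaks only. The lists hold peak positions without heights, so a peak's width is the only measure of its size, and a site without a peak may lie under the limit of detection. The asynchronous list has 31777 peaks with a median width of 378 bp and the mitotic list 1648 peaks with a median width of 298 bp.

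As background, cells enter mitosis when cyclin B bound to the kinase CDK1 becomes active, the spindle checkpoint then holds back anaphase until kinetochores are attached, and the anaphase-promoting complex releases the cell by marking securin and cyclins for degradation. Most genes of this programme are transcribed late in the cell cycle, through promoters that carry the CHR element (cell cycle genes homology region) and CCAAT boxes, which are bound by the MuvB complex with B-MYB and FOXM1 and by NF-Y. GATA2 is a zinc finger factor of blood stem and progenitor cells that binds GATA sequences. A factor is called a bookmark when it stays on part of its sites through mitosis, and a peak is called bookmarked here if the asynchronous and the mitotic interval share at least 1 base.

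GATA2 was found near about as many of the cell division genes as near protein-coding genes in general, and few of these sites had a mitotic peak. At least 1 asynchronous peak was nearest to 26 of the 50 genes, or 52.0% (37.4% to 66.3%), beside 49.8% of all protein-coding genes. A mitotic peak was nearest to 2 of the 50, FZR1 and MKI67, or 4.00% (0.488% to 13.7%), beside 6.67% of all protein-coding genes. Both intervals include the value for all genes. The side of the background on which the asynchronous share fell depended on the rule: it was 32.0% beside 37.9% with non-coding genes admitted to the search for the nearest TSS, and 46.0% beside 48.0% with peaks limited to 100 kb. The 26 genes held 54 asynchronous peaks, of which 12 genes had 1, 5 had 2, 6 had 3, 2 had 4 and WEE1 had 6. The mean was 1.08 peaks per cell division gene and 1.59 per protein-coding gene, while the medians were 1 and 0. Of these 54 peaks 2 were bookmarked, or 3.70% (0.452% to 12.7%), beside 5.04% of all asynchronous peaks. In the plot of peaks per gene, WEE1, ANLN and ECT2 stand at the top and 24 genes are absent.

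The sequences that carry the mitotic finding are those of the only mitotic peaks at these genes, and they are shown because the sites differ in distance from their gene and in GATA content. FZR1 encodes CDH1, the activator of the anaphase-promoting complex in late mitosis and G1, and lies on the plus strand at chr19:3506311-3538334 (ENSG00000105325). Its mitotic peak, chr19:3520598-3520994, is 397 bp wide and falls in intron 1 of the canonical transcript, 14287 bp from the canonical TSS. It was counted to FZR1 through an internal transcript start 1990 bp away. MKI67 encodes Ki-67, the protein that coats mitotic chromosomes, and lies on the minus strand at chr10:128096659-128126423 (ENSG00000148773). Its mitotic peak, chr10:128599602-128599892, is 291 bp wide, lies outside protein-coding genes and is 473179 bp upstream of the nearest MKI67 TSS. The reference sequences are on the plus strand of hg38, with capitals for the GATA consensus, which is GATA preceded by A or T and followed by A or G, on either strand. The whole MKI67 peak and the 300 bases of the FZR1 peak at chr19:3520646-3520945 are given.
MKI67 mitotic peak: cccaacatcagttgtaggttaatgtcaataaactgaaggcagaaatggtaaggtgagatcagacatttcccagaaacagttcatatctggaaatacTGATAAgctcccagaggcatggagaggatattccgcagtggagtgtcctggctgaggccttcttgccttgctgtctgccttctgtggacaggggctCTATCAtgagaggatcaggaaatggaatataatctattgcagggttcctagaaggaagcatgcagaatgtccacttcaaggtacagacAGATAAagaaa
FZR1 mitotic peak: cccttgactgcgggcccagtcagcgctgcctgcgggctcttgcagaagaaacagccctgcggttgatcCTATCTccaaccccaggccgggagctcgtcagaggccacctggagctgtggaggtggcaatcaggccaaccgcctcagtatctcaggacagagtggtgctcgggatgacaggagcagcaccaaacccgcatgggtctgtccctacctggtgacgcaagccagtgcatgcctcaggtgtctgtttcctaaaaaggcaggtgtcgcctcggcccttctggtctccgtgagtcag

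The MKI67 interval held 3 GATA matches and the FZR1 interval 1. The MKI67 site also held CTG and GATAA with 8 bases between them, the composite of a partial E-box and a GATA site that GATA and TAL1 complexes are known to occupy. Both mitotic peaks lay wholly inside an asynchronous peak. The asynchronous MKI67 peak was 971 bp wide, so the shared part was 30.0% of it, and the asynchronous FZR1 peak was 633 bp wide, with 62.7% of it shared. Among all asynchronous peaks these widths stood at percentiles 98.3 and 87.0. The mitotic widths stood at percentiles 48.0 and 75.7 of the mitotic list. Among the 54 peaks of the cell division genes, the MKI67 peak ranked 1 and the FZR1 peak 7 by width. The other peaks at least as wide as that of FZR1 were 3 of WEE1 (716, 704 and 671 bp), 1 of PTTG1 (649 bp) and 1 of NCAPD2 (639 bp), and none of these overlapped a mitotic peak. At or above the FZR1 width, 2 of 7 peaks of the cell division genes were thus bookmarked. This was 28.6% (3.67% to 71.0%), beside 22.0% of the other asynchronous peaks. The cut-off was itself the width of a bookmarked peak.

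**Figure D1:**
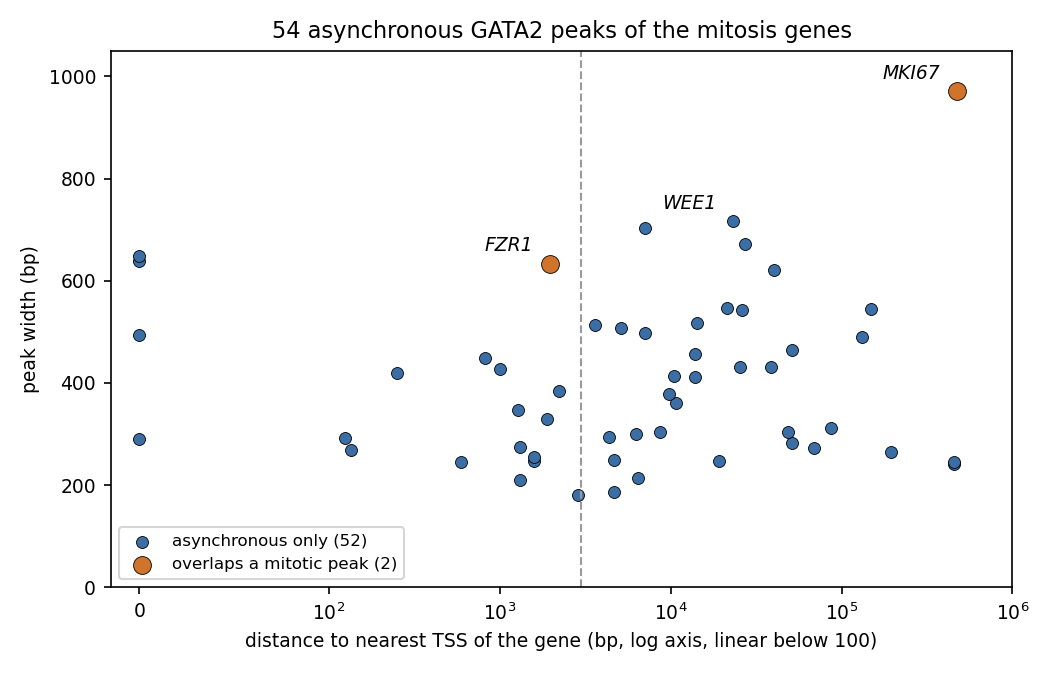
Width in bp (y axis) against distance in bp to the nearest TSS of the gene (x axis, log scale, linear below 100) for the 54 asynchronous peaks of the cell division genes, with a dashed line at 3 kb. The bookmarked peaks are 971 bp wide at MKI67, 472735 bp from its TSS, and 633 bp wide at FZR1, while WEE1 peaks of up to 716 bp are asynchronous only.

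Neither mitotic call at these genes is firm as an assignment. With non-coding genes admitted to the search for the nearest TSS, neither gene kept its mitotic peak. At FZR1 the TSS of a small nucleolar RNA gene (ENSG00000252408) is 326 bp from the mitotic peak. With peaks limited to 100 kb from a TSS, or to 10 kb around the gene body, FZR1 alone remained.

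A promoter peak, here an asynchronous peak within 3 kb of a TSS, was found at 17 of the 50 genes, or 34.0% (21.2% to 48.8%), beside 23.9% of all protein-coding genes. Of the 54 peaks, 19 lay within 3 kb, or 35.2% (22.7% to 49.4%), beside 21.4% (21.0% to 21.9%) of the other asynchronous peaks. The median distance to the TSS was 7080.5 bp (quartiles 1589.2 and 26825.5 bp) for the cell division genes and 14236 bp (3905 and 44712.5 bp) for the other peaks. For both the count of genes and the count of peaks the difference from the background was not tested, and only the interval over genes includes its background value. Within 1 kb the shares were 18.5% (9.25% to 31.4%) and 11.5%. Many of these starts belong to shorter transcripts: with the canonical transcripts alone, 20.0% (11.1% to 31.8%) of 65 peaks were within 3 kb, beside 11.5% of the others.

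The bookmarked FZR1 peak, with a GATA match 8 bp from its midpoint, was left out of the choice of sequences below. Among the other promoter peaks, those with a GATA match closest to their midpoint were at BUB1, CDK1, FZR1 and PLK4. Their sequences are shown to let the sites be compared at the base level. They are on the plus strand of hg38 with GATA matches in capitals, and bases in exons of protein-coding genes are left out.
BUB1, chr2:110679366-110679665: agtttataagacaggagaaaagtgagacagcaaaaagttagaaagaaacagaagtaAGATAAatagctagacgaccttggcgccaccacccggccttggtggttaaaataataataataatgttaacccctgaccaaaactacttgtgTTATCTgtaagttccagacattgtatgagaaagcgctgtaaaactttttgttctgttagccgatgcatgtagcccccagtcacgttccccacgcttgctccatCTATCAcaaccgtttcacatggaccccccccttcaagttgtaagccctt
CDK1, chr10:60781743-60781990: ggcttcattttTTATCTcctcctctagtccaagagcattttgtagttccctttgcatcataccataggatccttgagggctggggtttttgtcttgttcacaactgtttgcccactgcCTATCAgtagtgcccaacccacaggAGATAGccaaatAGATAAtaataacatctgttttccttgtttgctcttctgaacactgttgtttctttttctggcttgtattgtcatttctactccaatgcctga
FZR1, chr19:3521140-3521395: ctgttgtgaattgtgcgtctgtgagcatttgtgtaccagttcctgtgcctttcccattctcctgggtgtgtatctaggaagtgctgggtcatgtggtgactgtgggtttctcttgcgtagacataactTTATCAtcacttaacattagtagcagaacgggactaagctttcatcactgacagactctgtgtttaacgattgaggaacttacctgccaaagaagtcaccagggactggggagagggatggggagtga
PLK4, chr4:127881371-127881648: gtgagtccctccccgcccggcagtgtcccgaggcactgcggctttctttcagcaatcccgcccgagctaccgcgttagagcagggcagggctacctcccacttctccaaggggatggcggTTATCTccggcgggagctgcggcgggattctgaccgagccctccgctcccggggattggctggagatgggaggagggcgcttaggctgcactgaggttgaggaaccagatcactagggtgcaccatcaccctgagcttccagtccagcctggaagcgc

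Among the genes for mitotic entry, 6 of 13 had an asynchronous peak and 5 a promoter peak, 14 peaks in all. These counts and those of the smaller groups below stand beside 49.8% and 23.9% of all protein-coding genes. No group was tested. WEE1, the kinase that holds CDK1 inactive, had 6 peaks with widths from 247 to 716 bp. One of them lay over an internal TSS in intron 1, 1346 bp from the canonical TSS, another 3 were 7062, 21336 and 23087 bp upstream, and the remaining 2 were 19098 and 27090 bp from the last annotated TSS, beyond the gene. Together they held 8 GATA matches, and the one 7062 bp upstream also held 3 matches to the AP-1 strings TGACTCA and TGAGTCA. None of the 6 was bookmarked, and the nearest mitotic peak of any gene was 65540 bp from a WEE1 TSS. CDK1, the kinase that drives entry into mitosis, had 2 peaks, of 248 and 622 bp, each with 4 GATA matches. The narrower one is printed above, lies in intron 2 and is 1590 bp from a TSS, while the wider one is 40348 bp away with 3 AP-1 strings. PLK4, the kinase of centriole duplication, had 3 peaks in a row at 124, 4373 and 9808 bp from its TSS. CDC25C, the phosphatase that activates CDK1, had 1 peak of 291 bp over its canonical TSS. PKMYT1, the membrane-bound inhibitor of CDK1, had 1 peak 998 bp upstream, which lay over a TSS of a long non-coding RNA gene. CCNB2, a B-type cyclin, had 1 peak of 507 bp in intron 3 with 5 GATA matches, 6023 bp from the canonical TSS.

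The cyclins CCNB1 and CCNA2, the phosphatases CDC25A and CDC25B and the kinases PLK1, AURKA and MASTL had no peak of either list nearest to them. For AURKA, which matures centrosomes, an asynchronous peak of 259 bp was only 31 bp from its TSS, but it lay over a TSS of the neighbour CSTF1 and was given to that gene. The nearest asynchronous peak of any gene was 10352 bp from CCNB1, 10033 bp from PLK1, 17190 bp from CDC25B, 22521 bp from CCNA2 and 45072 bp from CDC25A. For MASTL it was 173248 bp away.

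Of the 11 spindle checkpoint and kinetochore genes, 5 had an asynchronous peak, 8 peaks in all, and 1 had one within 3 kb, a group too small to set against the 23.9% of all genes. That gene was BUB1, a checkpoint kinase, with peaks 1280, 10762 and 13799 bp upstream of its TSS, of 347, 360 and 411 bp. SPC25, a subunit of the NDC80 complex, had 2 peaks, one of 514 bp with 5 GATA matches 3602 bp upstream of its canonical TSS. This gene was also 22650 bp from a mitotic peak of 523 bp that was given to ABCB11. TTK, the kinase MPS1, had 1 peak 14159 bp away. The peaks of BUB3 and NUF2 were 50912 and 195629 bp from their TSS. BUB1B, MAD2L1, NDC80, CENPA, CENPE and CENPF had none. Of these, CENPA was closest to a peak of another gene (4734 bp) and MAD2L1 farthest from any (393823 bp).

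Of the chromosomal passenger complex, the Aurora B kinase AURKB and its scaffold INCENP had 2 asynchronous peaks each and the subunits BIRC5 (survivin) and CDCA8 (borealin) had none. The AURKB peaks, 2885 bp upstream and 6440 bp downstream of a TSS, were 180 and 214 bp wide, and the first was the narrowest of the 54 and held no GATA match. INCENP had a 385 bp peak in intron 4, 2219 bp from an internal TSS, and another 69115 bp upstream. At CDCA8, a peak 1497 bp from its TSS was 203 bp from a TSS of C1orf109 and was given to that gene.

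Among the spindle motors and assembly factors, KIF11 (the bipolar spindle motor EG5) was the 1 gene of 5 with a peak, 449 bp wide with 3 GATA matches, 813 bp from a TSS and 2210 bp from the canonical one. KIF18A, KIF2C, KIF4A and TPX2 had none. KIF4A could hardly receive a peak under this rule, since only 0.289 kb of the genome is nearer to its TSS than to that of another protein-coding gene. In the central spindle and cytokinesis group, 3 of 5 genes had 9 peaks, a group too small to set against the 49.8% of all genes. ECT2, which activates RHOA at the cleavage site, had 4 peaks, all beyond the gene end at 7099, 26032, 38738 and 51258 bp from its last TSS, with 5, 5, 3 and 4 GATA matches. Measured from the canonical TSS, the same peaks were 74704 to 118863 bp away. ANLN, the contractile ring protein anillin, had 4 peaks, in introns 3 (1308 bp from an internal TSS) and 7, and 2 beyond the gene at 10385 and 25379 bp. KIF20A had 1 peak of 210 bp in intron 17 with no GATA match. KIF23 and PRC1 had none.

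**Figure D2:**
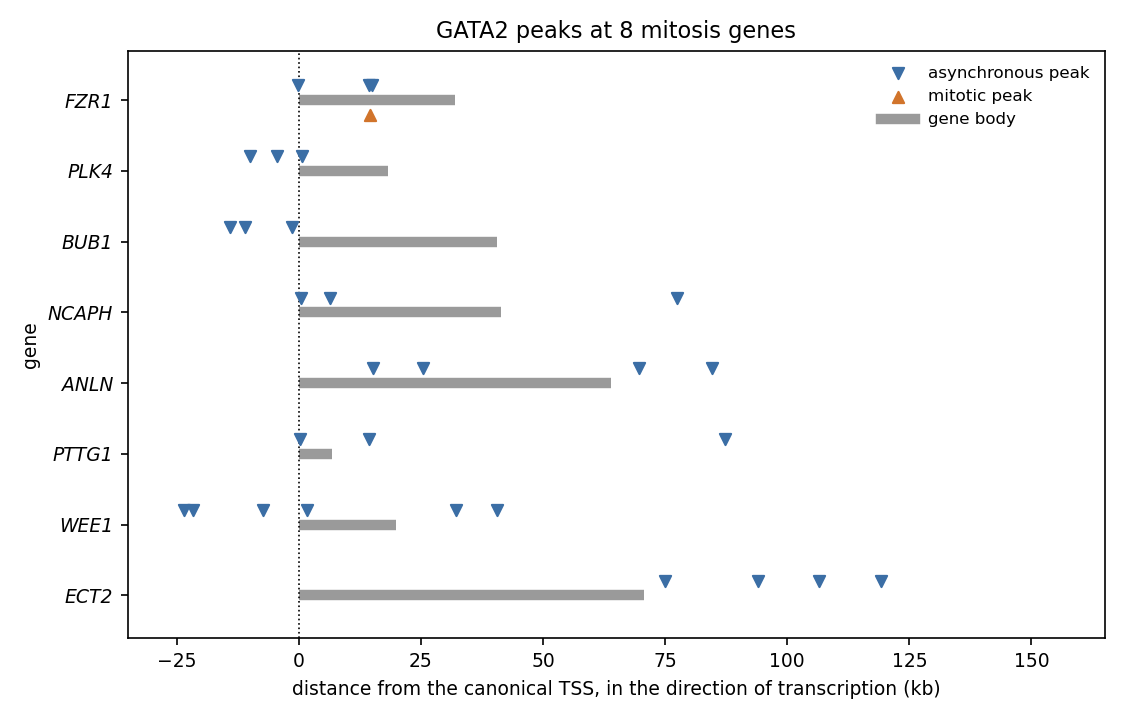
Position of GATA2 peaks (triangles, asynchronous above and mitotic below the line) relative to the canonical TSS, in kb in the direction of transcription (x axis), for 8 cell division genes with at least 3 asynchronous peaks (y axis); grey bars are gene bodies. MKI67, whose 3 peaks are at least 453037 bp from its TSS, is off this scale. At ECT2 all 4 peaks lie past the gene body, and at FZR1 the mitotic peak lies inside intron 1.

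Of the 7 genes for condensins and the chromosome surface, 6 had an asynchronous peak nearest to them, 11 peaks in all, beside 49.8% of all genes. Only 3 of the 7 had one within 3 kb, and the peaks of MKI67 and SMC2 were all more than 100 kb away. NCAPD2, a condensin I subunit, had a 639 bp peak over its canonical TSS, and NCAPH, another subunit of that complex, had peaks 250, 6260 and 48455 bp from a TSS. NCAPG had a 330 bp peak over exon 3, 1893 bp from a TSS. TOP2A, the topoisomerase that untangles sister chromatids, had 1 peak 8619 bp from a TSS and 36913 bp from the canonical one. SMC2, the ATPase core of condensin, had 2 peaks 131300 and 148273 bp downstream, and SMC4, its partner, none.

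The MKI67 peaks besides the bookmarked one were 242 and 246 bp wide. The second, chr10:128583253-128583498, held 19 GATA matches, more than any other peak of these genes, and is shown because it is a tandem array and not a set of separate sites. It was picked after its values were seen.
MKI67 asynchronous peak: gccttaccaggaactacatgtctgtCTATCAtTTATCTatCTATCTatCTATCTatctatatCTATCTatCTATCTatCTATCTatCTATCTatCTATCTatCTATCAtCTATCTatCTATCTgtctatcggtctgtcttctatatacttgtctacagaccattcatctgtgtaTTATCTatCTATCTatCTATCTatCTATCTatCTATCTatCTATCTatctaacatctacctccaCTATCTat

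Of the 18 steps between successive matches in this array, 13 were of 8 bp, as a repeated unit of 4 bases gives when matches may not overlap. As many matches or more were found in 170 of all asynchronous peaks, or 0.535%. This array was not bookmarked.

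Among the anaphase genes, 3 of 4 had a promoter peak, a group too small to set against the 23.9% of all genes. CDC20, the activator of the anaphase-promoting complex at metaphase, had 1 peak of 246 bp with 2 GATA matches 591 bp upstream. PTTG1 (securin), the inhibitor of separase, had peaks over its TSS and 13782 and 86648 bp away, and the first held 2 matches to the RUNX string AACCACA. FZR1 had 3 peaks within 3 kb of one of its starts: a 269 bp peak 134 bp upstream of the canonical TSS with no GATA match, the bookmarked peak, and the 256 bp peak printed above. ESPL1 (separase) and FOXM1, the transcription factor of the programme, had none, with the nearest asynchronous peak 21951 and 23138 bp away.

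Several promoter peaks could not be given to a single gene by position. The peak over the NCAPD2 TSS was 152 bp from a TSS of MRPL51, that of PTTG1 was 54 bp from SLU7, that of CDC25C was 129 bp from FAM53C and that of NCAPG was 2163 bp from DCAF16. The CDC20 peak was 286 bp from the divergent transcript CDC20-DT. The promoter peak of BUB1 was 1118 bp from a TSS of a long non-coding RNA gene (ENSG00000289202) and 1280 bp from that of BUB1. At FZR1, the 256 bp peak lay over a TSS of the small nucleolar RNA gene ENSG00000252408, and the bookmarked asynchronous peak was 295 bp from it. These FZR1 peaks were 14829 and 14082 bp from the canonical TSS of FZR1. Over the 54 peaks, 35 lay outside protein-coding genes and 19 inside the gene they were given to. Upstream of the nearest TSS lay 23, downstream 27 and over it 4.

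The 24 genes without a peak of their own were mostly within 50 kb of an asynchronous peak, as were most protein-coding genes. The nearest asynchronous peak of any gene was between 31 and 458339 bp away, with a median of 22236 bp, and within 10 kb for 7 and 50 kb for 19 of the 24. Of all protein-coding genes, with or without a peak of their own, 42.9% had one within 10 kb and 72.8% within 50 kb. The 24 genes are nearest to less of the genome: the median territory, the sequence closer to their TSS than to any other protein-coding TSS, was 39.1 kb, against 70.6 kb for the 26 genes with a peak. The part of territory size in who received a peak was not tested. Per Mb of territory, the 50 genes had 9.22 asynchronous peaks (6.93 to 12) and all protein-coding genes 10.8. With non-coding genes admitted, the 50 genes had 13.7 (8.93 to 20.0), and genes of every annotated type together had 10.8. The density of protein-coding genes alone was not computed under that rule. With protein-coding genes only, the densities of mitotic peaks were 0.342 (0.0414 to 1.23) for the 50 genes and 0.561 for all protein-coding genes.

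Counted by distance alone, whichever gene a peak had been given to, an asynchronous peak lay within 3 kb of a TSS for 38.0% (24.7% to 52.8%) of the cell division genes and 26.4% of all protein-coding genes, and within 10 kb for 56.0% (41.3% to 70.0%) and 42.9%. Within 100 kb the shares were 88.0% (75.7% to 95.5%) and 84.6%. A mitotic peak lay within 10 kb of 1 gene, FZR1, or 2.00% (0.0506% to 10.6%), beside 3.38% of all genes. Within 100 kb the shares were 18.0% (8.58% to 31.4%) and 17.4%. The median distance to the nearest mitotic peak was 602659 bp for the cell division genes and 464599.5 bp for all protein-coding genes on chromosomes with such a peak.

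**Figure D3:**
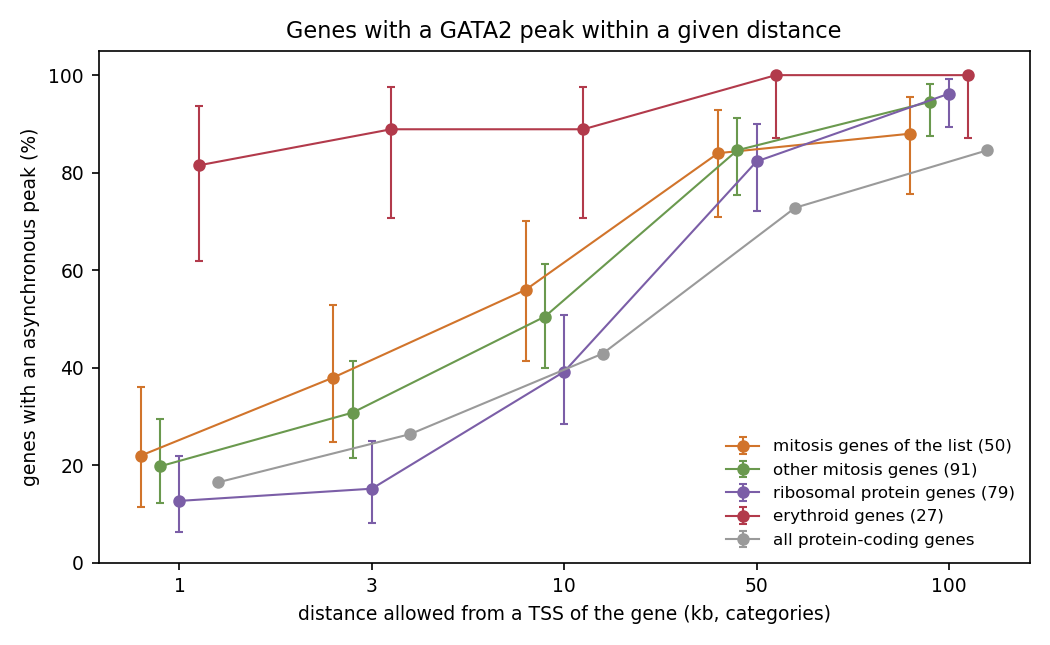
Percent of genes (y axis) with an asynchronous GATA2 peak within 1, 3, 10, 50 or 100 kb of a TSS (x axis, as categories) in the cell division genes, 3 other gene lists and all protein-coding genes; bars are 95% exact binomial intervals. The cell division genes go from 22.0% at 1 kb to 88.0% at 100 kb and the erythroid genes start at 81.5%.

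Other genes of mitosis had an asynchronous or a mitotic peak in similar shares, but fewer of their asynchronous peaks lay near a TSS. In a list of 91 further genes for the anaphase-promoting complex, kinetochore, cohesin, motors and regulators, 49 had an asynchronous peak, or 53.8% (43.1% to 64.4%), and 6 a mitotic peak, or 6.59% (2.46% to 13.8%). The mitotic peaks belonged to CDC14A (2 peaks), SKA1, MAD1L1, SGO1, ANAPC1 and CIT, the closest 16056 bp from its TSS. Of the 141 asynchronous peaks of these 91 genes, 22.0% (15.5% to 29.7%) lay within 3 kb of a TSS. That share was 35.2% for the cell division genes and 21.4% for all protein-coding genes. Per Mb of territory the 91 genes had 13.0 asynchronous peaks (11.0 to 15.4), beside 9.22 for the cell division genes. The G1 cyclins, CDKs and CDK inhibitors had asynchronous peaks at 8 of 15 genes and a mitotic peak at 1. Ribosomal protein genes had them at 27 of 79 (34.2%, 23.9% to 45.7%) and 3. Their median territory was 15.76 kb, against 50.18 kb for the cell division genes. Per Mb of territory the ribosomal protein genes had 11.1 asynchronous peaks (8.33 to 14.5), so by this measure they were not below the 9.22 of the cell division genes. Erythroid genes, known targets of GATA factors, had an asynchronous peak at 23 of 27, or 85.2% (66.3% to 95.8%), and a mitotic peak at 8, or 29.6% (13.8% to 50.2%). The intervals of the cell division and erythroid genes meet at 66.3% for asynchronous peaks and lie just apart for mitotic peaks. Per Mb of territory the erythroid genes had 64.6 asynchronous peaks (52.7 to 78.5). No test was made between the lists, whose members were chosen by function but with earlier results of these data known.

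The asynchronous peaks of the cell division genes held GATA sequences as often as other peaks. A match was present in 49 of 54, or 90.7% (79.7% to 96.9%), beside 93.0% of the other peaks and 48.1% (38.4% to 58.0%) of sequences of equal width 5 kb to each side. The match nearest to the midpoint was a median of 17 bp from it (quartiles 8 and 38 bp), against 28 bp (12 and 55 bp) in the other peaks. It was within 25 bp in 71.4% (56.7% to 83.4%) of the peaks with a match, against 46.9% (46.3% to 47.5%). This share was added after the data were seen, so its interval does not allow for that choice. At least 2 matches were present in 55.6% (41.4% to 69.1%) and 66.4%. Peaks within 3 kb of a TSS held a match in 15 of 19, or 78.9% (54.4% to 93.9%), beside 89.2% of the other peaks at promoters, and the 4 without one were those at AURKB, FZR1, KIF20A and NCAPD2. Beyond 3 kb, 34 of 35 had one, or 97.1% (85.1% to 99.9%), beside 94.0% of the others. The widths were like those of the other peaks, with medians of 381.5 and 378 bp.

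Strings of partner factors were found at shares whose intervals include those of the rest of the list. The GATA:E-box composite was found in 2 peaks, at MKI67 and ANLN, or 3.70% (0.452% to 12.7%), beside 8.56% of the other peaks. The RUNX string was found in 7.41% (2.06% to 17.9%) and 13.6%, the ETS string AGGAAGT in 13.0% (5.37% to 24.9%) and 14.9%, the AP-1 strings in 18.5% (9.25% to 31.4%) and 13.0%, and the E-box CAGCTG in 20.4% (10.6% to 33.5%) and 24.1%. CCAAT was found in 25.9% (15.0% to 39.7%) of the peaks and 41.2% of the others, outside the interval. The lower share lay in the peaks beyond 3 kb, with 17.1% (6.56% to 33.6%) beside 41.6%. Within 3 kb of a TSS the shares were 42.1% (20.3% to 66.5%) and 39.5%. All strings were searched on both strands.

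The promoters of these genes held the known elements of the mitotic programme more often than promoters in general. RefSeq promoter windows on GRCh38.p14, from 250 bases before to 50 after the gene start, were matched by symbol for 42 of the 50 genes. No window was matched for AURKA, BIRC5, BUB3, FOXM1, PKMYT1, TPX2, TTK and WEE1. The window counts thus leave out PKMYT1 and WEE1, which had a promoter peak, and AURKA, with a peak given to CSTF1 31 bp from its TSS. The CHR string TTTGAA on either strand was found in 30 of 42, or 71.4% (55.4% to 84.3%), beside 12.1% of all 15843 protein-coding windows. CCAAT was found in 28, or 66.7% (50.5% to 80.4%), beside 36.4%, and both strings together in 47.6% (32.0% to 63.6%) beside 5.02%. An E2F string was found in 7.14% (1.5% to 19.5%) and 4.44%. A GATA match was found in 6 windows, CDC20, CENPA, CENPE, KIF20A, SMC2 and SMC4, or 14.3% (5.43% to 28.5%), beside 19.7%. In the other mitosis genes, CHR was found in 40.7% (29.9% to 52.2%) of 81 windows. An asynchronous peak overlapped the window of FZR1, NCAPD2 and PTTG1, or 7.14% (1.5% to 19.5%), beside 3.93% of all. The CDC25C window, chr5:138338306-138338605, lies at another start than the canonical TSS and did not overlap the peak there. No mitotic peak overlapped a window of these genes, which allows a share of up to 8.41%, beside 0.221% of all windows. The CHR string was found in 9 of the 15 matched genes with a promoter peak and in 21 of the 27 without one. Within the peaks themselves, it was found in 42.1% (20.3% to 66.5%) of the promoter peaks of these genes, beside 28.2% of other promoter peaks, and in 31.5% (19.5% to 45.6%) of all their peaks, beside 30.6%.

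**Figure D4:**
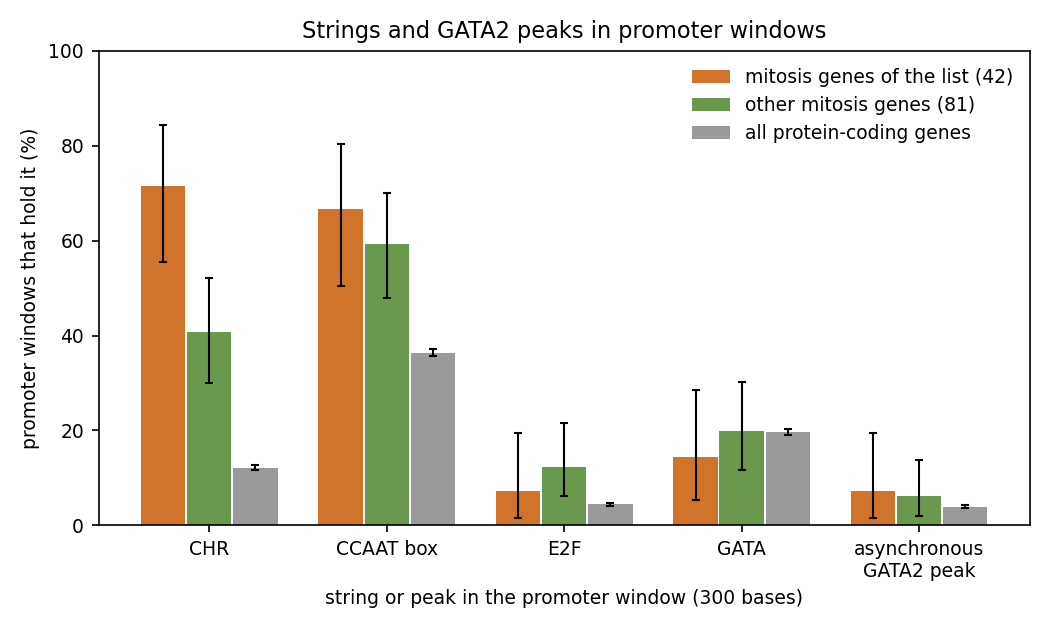
Percent of promoter windows (y axis) that hold the CHR string, CCAAT, an E2F string, a GATA match or an asynchronous GATA2 peak (x axis) for 42 cell division genes, 81 other mitosis genes and all 15843 protein-coding genes, with 95% exact binomial intervals. The cell division genes stand at 71.4% for CHR against 12.1% of all genes, and at 14.3% for GATA against 19.7%.

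The window with most CHR and CCAAT strings was that of TOP2A, with 4 CCAAT and 2 CHR strings. CCNB2, CENPF and NCAPD2 followed with 4 and 1 and ECT2 with 3 and 2, and of these 5 windows that of NCAPD2 overlapped an asynchronous peak. TOP2A and CCNB2 are shown as examples of this promoter type. Their bases before the gene start and outside protein-coding exons are given on the strand of the gene, as RefSeq gives them, with both strings in capitals (TTTGAA or TTCAAA for CHR, CCAAT or ATTGG).
TOP2A, chr17:40417897-40418146, minus strand: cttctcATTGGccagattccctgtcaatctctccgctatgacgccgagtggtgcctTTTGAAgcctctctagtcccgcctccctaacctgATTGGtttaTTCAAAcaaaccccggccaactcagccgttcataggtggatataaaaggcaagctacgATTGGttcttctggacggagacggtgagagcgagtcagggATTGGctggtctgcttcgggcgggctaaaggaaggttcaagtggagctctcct
CCNB2, chr15:59104896-59105125, plus strand: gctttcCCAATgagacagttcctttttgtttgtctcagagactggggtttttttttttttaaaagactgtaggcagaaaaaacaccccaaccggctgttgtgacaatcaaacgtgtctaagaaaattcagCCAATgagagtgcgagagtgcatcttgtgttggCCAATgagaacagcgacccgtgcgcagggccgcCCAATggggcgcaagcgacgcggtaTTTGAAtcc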

How the data were processed

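GATA2 ChIP-seq was analysed from the deposited peak lists of asynchronous and mitotic K562 cells, 1 library each. The authors aligned reads to hg38 (BWA 0.7.12), kept unique alignments, called peaks with MACS2 2.1.0 and Genrich 0.6.1 and removed blacklisted regions. Their way of joining both callers, their thresholds and the role of the inputs are not given in the sources used here. The deposited values are interval starts and ends in bp, with no height, score or p-value, so depth is unknown. Inputs were not analysed here.

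Every peak ended within its chromosome in the hg38 reference. Each peak was given to the gene of the nearest protein-coding TSS (GENCODE release 44), measured from the peak edge. Ties, 59 asynchronous and 3 mitotic peaks and none at the cell division genes, went to the TSS nearer to the midpoint. Motifs were matched as fixed strings without overlap. The genes and lists were chosen with earlier results of these data known. Genes were named by rule: those with mitotic, promoter or most asynchronous peaks or with none, and neighbours at shared promoters. The remaining genes of the list were named so that each is accounted for. The MKI67 array, the share within 25 bp of the midpoint and the alternatives with canonical promoters and without MKI67 were chosen after seeing the data. No test between conditions was possible. On simulated data, all 3000 peaks received the gene of an exhaustive search and all 300 planted overlaps were found. Scripts ran under Python 3.11.15. Sequences were read with pysam 0.24.0 and intervals computed with scipy 1.17.1, tables with pandas 2.3.3 and numpy 2.4.6, figures with matplotlib 3.10.9.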

Additional observations from a re-analysis of the deposited data

How the results depend on the processing

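Of 27 alternative values, 14 stayed within counting error or within 1.5 times the count and 13 did not. With non-coding genes admitted to the search for the nearest TSS, 16 genes had an asynchronous peak (32.0%, beside 37.9% of all protein-coding genes) and 0 a mitotic peak (beside 3.72%), so the asynchronous share went from above to below that of all genes, as it did within 100 kb (46.0% beside 48.0%). The bookmarked share was then 0% of 26 peaks, which allows up to 13.2%, beside 5.04%, and the promoter share 53.8% beside 31.0%. The asynchronous density was 13.7 peaks per Mb and the mitotic density 0.0, beside 10.8 and 0.561 for genes of every annotated type together. Densities of protein-coding genes alone were not computed under that rule. Fewer bases and peaks are left to each gene under that rule. The count of genes with a mitotic peak was 1 for peaks up to 10 kb outside the gene, within 100 kb of the TSS or at or above the median width, and 1 without MKI67, an alternative chosen after the data were seen. The promoter share was 18.5% within 1 kb and 20.0% with canonical transcripts (both beside 11.5%). Of these, only the alternative with canonical transcripts was chosen afterwards. The asynchronous density was 4.78 per Mb (beside 5.42) with peaks at or above the median width, since narrower peaks are left out. No paired analysis was possible because each condition has 1 library. Widths, not heights, stood for peak size, and libraries of unknown depth limit what a missing mitotic peak shows.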
